A study of Mus musculus with 9 samples.

Results

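RNA levels of 38 chaperone and unfolded protein response (UPR) genes were examined in mouse hematopoietic stem cells (HSCs). The genes were taken by name from the 56748 genes of the count table, with earlier results of these data known, and fall into 9 classes: 9 chaperones and co-chaperones of the endoplasmic reticulum (ER), 4 ER protein disulfide isomerases, 2 ER lectin chaperones, 3 ER-associated degradation genes, 3 UPR sensors, 5 integrated stress response genes, the heat shock factor Hsf1, 9 cytosolic chaperones and 2 subunits of the mitochondrial chaperonin. All 38 had counts in the libraries and all 38 passed the filter on low counts in each comparison. A second Ddit3 entry, with a count of 0 in all 9 libraries, made 39 entries for 38 names and was left aside.

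Bulk RNA-seq was performed on 3 groups with 3 libraries each (n = 3). Young HSCs (yHSCs) came from mice of 6 to 10 weeks, and pre-aged HSCs (paHSCs) from mice of 14 to 16 months were split into a Selp_low and a Selp_high fraction by surface P-selectin, the adhesion molecule encoded by Selp. All mice were C57BL/6 females without an engineered allele or a treatment, and all cells were sorted with the same SLAM immunophenotype (Lin-, Sca-1+, c-Kit+, CD150+, CD48-). Age and fraction are the differences that the labels name, and markers of other cell types, given below, differed as well. The yHSCs were not split by Selp, and whether each library came from separate animals or a pool is not given in the sources used here, so the p-values below measure the spread between these libraries only.

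The ER folds and glycosylates secreted and membrane proteins with the help of chaperones such as BiP (Hspa5), of disulfide isomerases that form and rearrange disulfide bonds, and of lectins that hold glycoproteins until they are folded. When unfolded proteins accumulate, the sensors IRE1 (Ern1), ATF6 and PERK (Eif2ak3) raise the transcription of these chaperones and, through eIF2 phosphorylation and ATF4, start the integrated stress response, whereas the heat shock factor HSF1 does the corresponding work for the cytosolic chaperones. HSCs make protein at a low rate and are known to be sensitive to misfolded protein, and plasma cells, which secrete antibody, are known for very high levels of the same ER genes.

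Promoters of the members carry short elements through which these branches are known to act, and the 7 below are shown because they hold such a match and belong to members whose levels are described here. Each is the 250 bases before the RefSeq gene start on GRCm38.p6, a different build from that of the counts, printed 5′ to 3′ on the strand of the gene. Capitals give the fixed letters of the match that the next sentence names for it. The first 4 hold the ER stress response element (ERSE, CCAAT and CCACG with 9 bases between them), bound by ATF6 with NF-Y, Herpud1 holds ERSE-II (ATTGG and CCACG with 1 base between them), Hspe1 holds the heat shock element (HSE, GAA, TTC and GAA with 2 bases between neighbors) in 2 overlapping matches, and Asns holds the C/EBP-ATF response element (CARE, TGATGNAA), bound by ATF4. The windows are Hspa5 at chr2:34771840-34772089 (+), Creld2 at chr15:88819396-88819645 (+), Pdia6 at chr12:17266339-17266588 (+), Dnajc3 at chr14:118937682-118937931 (+), Herpud1 at chr8:94386179-94386428 (+), Hspe1 at chr1:55087898-55088147 (+) and Asns at chr6:7693210-7693459 (-).
Hspa5: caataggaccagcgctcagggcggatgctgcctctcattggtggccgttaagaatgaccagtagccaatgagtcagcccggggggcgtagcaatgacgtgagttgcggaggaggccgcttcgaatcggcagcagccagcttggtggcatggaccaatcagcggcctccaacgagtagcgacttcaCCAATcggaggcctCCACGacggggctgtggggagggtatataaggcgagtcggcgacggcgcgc
Creld2: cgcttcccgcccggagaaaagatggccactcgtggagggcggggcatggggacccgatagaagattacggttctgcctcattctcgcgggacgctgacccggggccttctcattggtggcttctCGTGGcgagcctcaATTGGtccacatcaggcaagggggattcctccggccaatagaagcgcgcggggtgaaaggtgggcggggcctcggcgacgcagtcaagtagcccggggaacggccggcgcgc
Pdia6: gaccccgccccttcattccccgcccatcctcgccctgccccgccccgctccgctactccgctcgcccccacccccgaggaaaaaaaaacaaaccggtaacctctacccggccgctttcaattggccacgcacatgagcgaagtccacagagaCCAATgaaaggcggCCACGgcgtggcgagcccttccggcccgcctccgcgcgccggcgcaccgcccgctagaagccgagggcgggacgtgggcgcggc
Dnajc3: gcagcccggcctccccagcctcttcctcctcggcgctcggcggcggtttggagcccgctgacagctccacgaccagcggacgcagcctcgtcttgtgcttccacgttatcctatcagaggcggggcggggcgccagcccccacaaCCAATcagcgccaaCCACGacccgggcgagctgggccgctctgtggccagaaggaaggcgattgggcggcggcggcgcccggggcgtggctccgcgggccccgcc
Herpud1: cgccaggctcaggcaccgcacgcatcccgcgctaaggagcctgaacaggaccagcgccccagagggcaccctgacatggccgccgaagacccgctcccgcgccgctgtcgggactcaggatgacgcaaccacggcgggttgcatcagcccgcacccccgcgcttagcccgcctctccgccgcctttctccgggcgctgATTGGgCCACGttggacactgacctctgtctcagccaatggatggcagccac
Hspe1: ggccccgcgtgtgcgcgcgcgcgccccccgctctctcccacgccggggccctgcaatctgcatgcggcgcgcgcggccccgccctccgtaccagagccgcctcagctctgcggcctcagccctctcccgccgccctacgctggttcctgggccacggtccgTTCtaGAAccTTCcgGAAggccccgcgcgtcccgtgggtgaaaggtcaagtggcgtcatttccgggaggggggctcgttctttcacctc
Asns: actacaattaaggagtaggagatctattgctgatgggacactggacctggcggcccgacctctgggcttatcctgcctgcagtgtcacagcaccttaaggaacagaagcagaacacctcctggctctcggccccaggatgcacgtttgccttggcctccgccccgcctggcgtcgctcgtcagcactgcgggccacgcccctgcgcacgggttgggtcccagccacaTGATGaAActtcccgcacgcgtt
A window was on hand for 31 of the 38 members, and both strands were searched. ERSE was found in 8 of these 31 members (Hspa5, Hsp90b1, Dnajc3, Creld2, Pdia6, Calr, Canx and Syvn1), against 0.13% of the 27025 genes with a window. HSE was found in Hspd1 and Hspe1, which share a divergent promoter and hence the same bases, against 0.514% of genes, ERSE-II in Herpud1 alone, against 0.037%, and CARE in Herpud1 and Asns, against 3.91%. The UPR element of XBP1 and ATF6 (TGACGTGG) was found in 0 of the 31, against 0.603% of genes. Within the printed windows, the ERSE lay 65 bases before the start of Hspa5, 126 before Creld2, 98 before Pdia6 and 105 before Dnajc3, counted from its first base, and in Creld2 it was on the opposite strand. The CARE match of Herpud1, 112 bases before the start and on the opposite strand, is left in lower case above. These matches describe letters in a window and not binding in these cells.

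Libraries held 24866975 to 35375310 counts, and the HSC marker genes were detected in all 9, with 10 of 10 above 0 counts in each. Their summed level, in CPM (counts scaled to library size with TMM factors), was 1038 to 2296 in yHSCs, 2176 to 3123 in Selp_high and 820 to 1507 in Selp_low paHSCs. Slamf1 was 10.9 to 19.3 CPM in yHSCs and 41.0 to 198 CPM in paHSCs. Hlf was 110 to 390 CPM in yHSCs and 22.8 to 79.3 CPM in Selp_low paHSCs. Markers of other cell types also differed between libraries and groups. The 9 plasma cell markers summed to 450740 CPM in Selp_low replicate 2, and to 16302 and 893 CPM in the other Selp_low libraries, 2535 to 20537 CPM in the Selp_high libraries and 451 to 1272 CPM in the yHSC libraries, with all 9 above 10 CPM in Selp_low replicate 2 and 3 to 6 of 9 elsewhere. In that library the 10 highest genes took 44.8% of all counts. The 9 plasma cell markers did not move together, and Igkc, Ighm and Jchain had the highest mean CPM among them. In Selp_low replicate 1, Igkc stood at 12050.5 and Ighm at 3946 CPM, beside Mzb1 at 4.24 and Tnfrsf17 at 0.788 CPM. In Selp_high paHSCs and yHSCs, mean Sdc1 was 16.2 and 56.5 CPM, and mean Mzb1 was 1.37 and 0.216 CPM. The 10 neutrophil markers summed to 214236 CPM in Selp_low replicate 3, 65118 CPM in yHSC replicate 1 and 576 to 41770 CPM in the other 7, and the 8 B cell markers to 5424 and 7695 CPM in Selp_low replicates 1 and 2 and 54.8 to 495 CPM elsewhere. The 8 megakaryocyte and platelet markers were higher in most paHSC libraries. Their sums were 127 to 196 CPM in yHSCs, 1329 to 7201 CPM in Selp_high and 181, 1622 and 2173 CPM in Selp_low paHSCs. The 8 T and NK cell markers summed to 58.4 to 91.5, 127 to 151 and 269 to 797 CPM in yHSCs, Selp_high and Selp_low paHSCs. These 8 did not move together. In Selp_low replicate 3, Nkg7 stood at 620 CPM and Cd3d at 1.88 CPM. Cd3d reached 38.5 and 134 CPM in Selp_low replicates 1 and 2. In Selp_high paHSCs and yHSCs, mean Cd4 was 1.45 and 8.21 CPM, and mean Klrb1c was 63.0 and 3.38 CPM. The part of any of these cells in the differences from yHSCs below was not tested. In bulk libraries a larger share of cells of a type and more RNA per cell cannot be told apart. The main fitted values that rest on the Selp_low libraries are given with and without Selp_low replicate 2.

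Levels per gene length, which allow genes to be compared, spanned more than 2 orders of magnitude among the members. By mean FPKM over the 9 libraries, the cytosolic HSP90 gene Hsp90ab1 (505), the constitutive HSP70 gene Hspa8 (462) and Hspa5 (406) were highest. The lowest were the inducible HSP70 gene Hspa1a (1.84), the sensors Atf6 (2.69), Eif2ak3 (3.03) and Ern1 (3.30), and Hyou1 (3.26). The leading gene of the other classes was Pdia3 (249) among the disulfide isomerases, Calr (249) among the lectins, Herpud1 (154) in ER-associated degradation, Ppp1r15a (273) in the integrated stress response and Hspd1 (134) in mitochondria, and Hsf1 stood at 16.7. The steadiest member was Hspd1, whose highest library was 1.58 times its lowest in CPM, and the most variable were Hspb1 (48.4 times), Hspa1b (25.2 times) and Sdf2l1 (24.4 times).

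**Figure D1:**
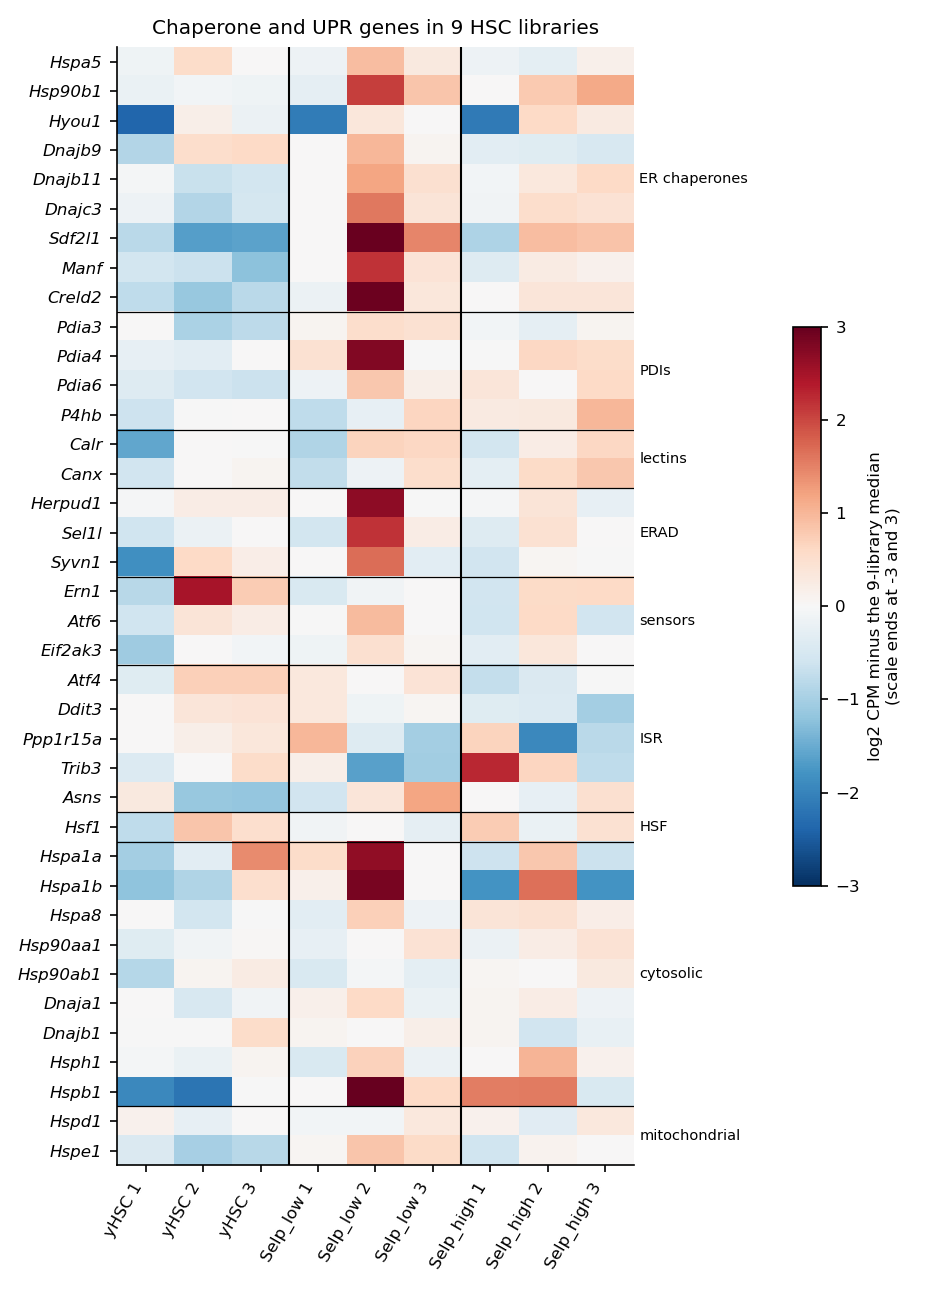
CPM of the 38 members (rows, by class) in the 9 libraries (columns, by group), as log2 CPM minus the median of the gene over the 9 libraries. Selp_low replicate 2 stood out in the ER classes, where Creld2 reached 819 CPM, Pdia4 1157 CPM and Herpud1 1394 CPM. PDIs are protein disulfide isomerases, ERAD is ER-associated degradation, ISR the integrated stress response and HSF heat shock factor.

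The comparisons address how expression of the folding machinery differs with age, in either fraction, and between the fractions at 1 age. Fitted values of the ER genes were mostly higher in paHSCs than in yHSCs, led by Sdf2l1 and Creld2 in both fractions, but by edgeR's quasi-likelihood test with Benjamini-Hochberg adjustment (adjusted p of 0.05 or less and at least a 2-fold change) 0 of 38 members passed in each of the 3 comparisons. The share of all genes that passed was 0.165% for Selp_high paHSCs over yHSCs and 0% for both other comparisons. DESeq2 called 1 member in Selp_high paHSCs over yHSCs (Creld2, against 3.26% of all genes), 2 in Selp_low paHSCs over yHSCs (Sdf2l1 and Hspb1, against 2.63%) and 0 in Selp_high over Selp_low paHSCs, where it called 2.46% of all genes and gave no adjusted p for Hspa1b. In that last comparison libraries with the same replicate number correlated above the 0.1 taken as pairing, which does not show a shared animal or day. DESeq2 with a block for the number called 3 members, Sdf2l1, Trib3 and Hspa1b, against 10.1% of all genes. With the block edgeR called 0. Sdf2l1 was also called by edgeR without a filter on low counts in Selp_high (1.14% of all genes) and, with Creld2, in Selp_low paHSCs over yHSCs (0.836%), and both genes by limma voom with quality weights in Selp_high paHSCs over yHSCs (1.37%). Both comparisons with yHSCs share the yHSC libraries, and the comparison of the fractions shares libraries with each, so the 3 are not independent.

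Below the adjusted threshold, an unadjusted p under 0.05 by edgeR was found for 10 members in Selp_high paHSCs over yHSCs, 8 of them higher and 2 lower, against 4.48% of all genes higher and 3.11% lower. In Selp_low paHSCs over yHSCs it was found for 11 members, all higher, against 7.11% of genes higher and 4.17% lower, and in Selp_high over Selp_low paHSCs for 2, both lower, against 6.88% higher and 5.67% lower. Libraries of the groups did not overlap for 7 members higher and 1 lower in Selp_high paHSCs than in yHSCs, where 8.53% and 5.28% of all genes did so. The corresponding counts were 9 higher and 0 lower for Selp_low paHSCs over yHSCs, against 9.59% and 6.76%, and 1 higher and 3 lower for Selp_high over Selp_low paHSCs, against 10.3% and 10.7%. Of these counts without overlap, the 7 and 9 higher members were larger shares of the 38 than their backgrounds, and the others were smaller shares.

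The median log2 fold change of the 38 members was 0.40 in Selp_high paHSCs over yHSCs, with 27 of 38 higher, beside -0.03 for all genes tested. It was 0.49 in Selp_low paHSCs over yHSCs, with 30 of 38 higher, beside 0.08, and without Selp_low replicate 2 it was 0.17, with 22 higher, beside 0.07. Between the fractions it was -0.45, with 10 of 38 higher in Selp_high paHSCs, beside -0.11 for all genes, and without Selp_low replicate 2 it was 0.09, with 24 of 38 higher. The direction between the fractions therefore rested on 1 library, and the difference of Selp_low paHSCs from yHSCs was smaller without it.

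**Figure D2:**
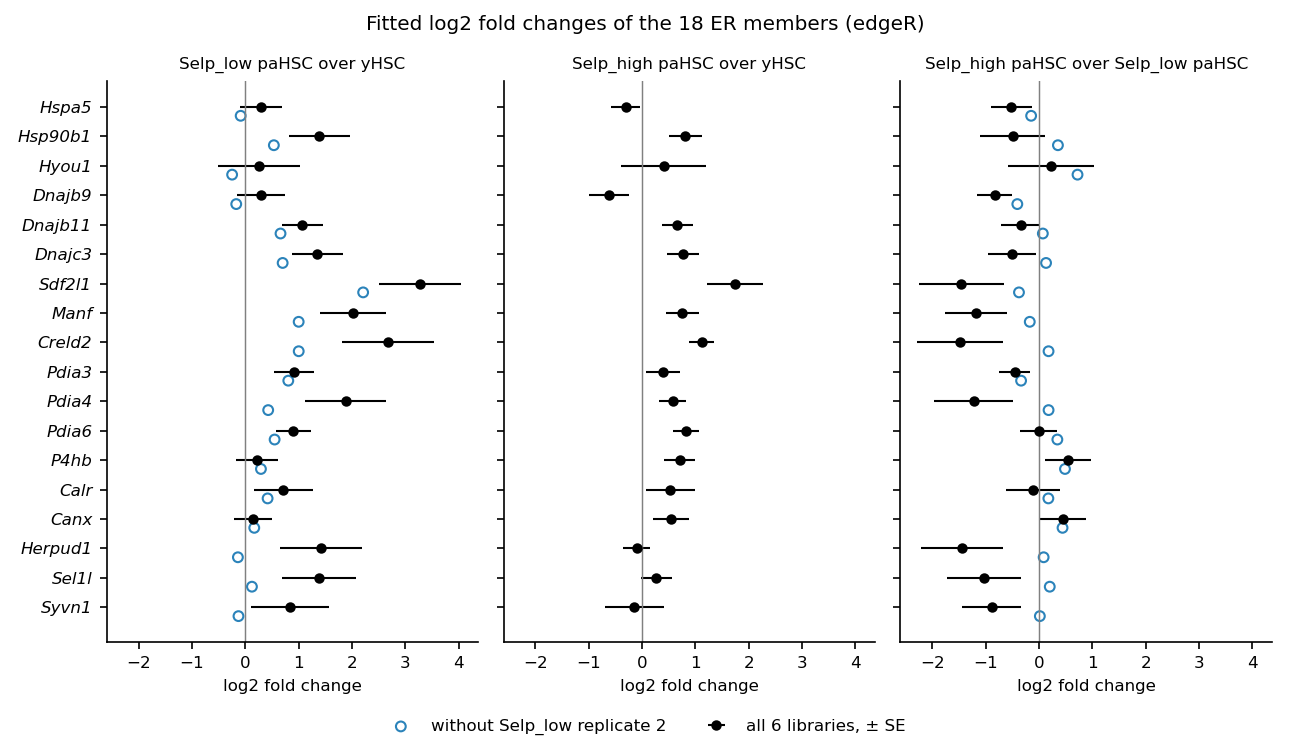
Fitted log2 fold changes of the 18 ER members by edgeR (x axis) in the 3 comparisons (panels). Black points with bars give the estimate from all 6 libraries ± SE, and open blue circles the estimate without Selp_low replicate 2. With all libraries 18 of 18 were higher in Selp_low paHSCs than in yHSCs, beside 55.1% of all genes, and without that library 13 of 18, beside 54.2%.

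Among the ER chaperones, Sdf2l1, Creld2 and Manf had the largest fitted fold changes over yHSCs in Selp_low paHSCs, and Hspa5 was among the smallest. The values below are given in the order of replicates 1, 2 and 3. Hspa5, which encodes BiP, the central HSP70 of the ER and regulator of all 3 sensors, stood at 1390, 2229 and 1512 CPM in yHSCs, 1366, 2851 and 1846 CPM in Selp_low paHSCs and 1370, 1229 and 1673 CPM in Selp_high paHSCs. The groups overlapped, with log2 fold changes of 0.30 (SE 0.40) for Selp_low over yHSCs, -0.30 (SE 0.27) for Selp_high over yHSCs and -0.51 (SE 0.39) for Selp_high over Selp_low, none of which passed the test. Without Selp_low replicate 2 the first was -0.09 and the last -0.14. Hspa5 lies on mm39 at chr2:34661982-34667559 (+).

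Sdf2l1 (mm39, chr16:16948002-16950247, -) encodes a small partner of the ER DNAJ proteins. It was measured at 39.4, 21.8 and 22.6 CPM in yHSCs, 68.4, 531 and 188 CPM in Selp_low paHSCs and 36.0, 130 and 123 CPM in Selp_high paHSCs. Each Selp_low library was above each yHSC library, whereas Selp_high replicate 1 lay among the yHSC libraries. The fold change of Selp_low paHSCs over yHSCs was 9.69 (log2 3.28, SE 0.78), with an adjusted p of 0.332 by edgeR and 0.0035 by DESeq2, and a range of 0.0035 to 0.981 over its alternatives. Here and below, this range does not count DESeq2 fits that leave out a library, which gave Sdf2l1 an adjusted p as low as 8.47e-06 and one above 0.05 without yHSC replicate 3 or Selp_low replicate 2. Without Selp_low replicate 2 the log2 fold change was 2.21, and DESeq2 then gave an adjusted p of 0.0970. In Selp_high paHSCs over yHSCs it was 3.34-fold (log2 1.74, SE 0.53), with an adjusted p of 0.393 by edgeR and 0.0677 by DESeq2, and 0.0152 to 1.00 over the alternatives. Selp_high lay below Selp_low in each pair of libraries with the same number, with a log2 fold change of -1.46 (SE 0.80, adjusted p = 0.504) by edgeR and -1.20 (adjusted p = 0.0128, 0.0128 to 1.00 over the alternatives) by DESeq2 with the replicate block, and by edgeR it was -0.37 without Selp_low replicate 2.

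Creld2 (mm39, chr15:88703849-88710886, +), an ER-resident protein with disulfide isomerase activity, had yHSC values of 62.4, 48.7 and 60.3 CPM (57.2 ± 7.36, SD, n = 3). All 3 Selp_high libraries, at 106, 138 and 136 CPM (127 ± 17.6, SD, n = 3), and all 3 Selp_low libraries, at 93.9, 819 and 134 CPM, were above these. It was the member with the lowest adjusted p in Selp_high paHSCs over yHSCs, at 2.17-fold (log2 1.12, SE 0.23), with an adjusted p of 0.173 by edgeR and 0.0109 by DESeq2, and a range of 0.0109 to 0.871 over the alternatives. With DESeq2 the call was kept without yHSC replicate 1 (0.0029) and without Selp_high replicate 1 (0.0049) and lost without any of the other 4 libraries (0.0595 to 0.279). For Selp_low paHSCs over yHSCs the log2 fold change was 2.68 (SE 0.86) with all libraries and 1.00 without replicate 2, and neither passed. Between the fractions it was -1.47 (SE 0.80, adjusted p = 0.503 by edgeR), and -1.93 to 0.18 with libraries left out in turn.

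Manf, a secreted ER stress factor, had the same order of group means as Creld2. It stood at 60.7, 57.4 and 38.3 CPM in yHSCs, 89.3, 402 and 118 CPM in Selp_low paHSCs and 68.5, 105 and 97.6 CPM in Selp_high paHSCs. Both paHSC fractions were above all yHSC libraries, by a log2 fold change of 2.02 (SE 0.62) for Selp_low, which was 1.00 without replicate 2, and 0.75 (SE 0.31) for Selp_high. Neither passed by edgeR (adjusted p = 0.339 and 0.639). Manf overlaps Rbm15b and Dcaf1, whose mean CPM was 33.2% and 21.9% of its own, so its counts are uncertain where reads could be split between them.

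Dnajc3, the ER-luminal co-chaperone of BiP also known as p58IPK, stood at 108, 65.7 and 84.3 CPM in yHSCs, 121, 359 and 158 CPM in Selp_low paHSCs and 112, 175 and 164 CPM in Selp_high paHSCs. Its paHSC libraries were again all above the yHSC libraries, though replicate 1 of each fraction exceeded yHSC replicate 1 by little. Its log2 fold changes over yHSCs were 1.35 (SE 0.48) in Selp_low, 0.70 without replicate 2, and 0.77 (SE 0.30) in Selp_high paHSCs, and its adjusted p by edgeR was 0.367 and 0.589.

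Hsp90b1, the HSP90 of the ER known as GRP94, was tight in yHSCs, at 184, 198 and 192 CPM (191 ± 6.84, SD, n = 3). It stood at 211, 363 and 461 CPM in Selp_high and at 175, 891 and 377 CPM in Selp_low paHSCs. The Selp_high libraries were thus all above the yHSC libraries (log2 fold change 0.81, SE 0.31, adjusted p = 0.582 by edgeR), while Selp_low replicate 1 lay below them (log2 fold change 1.39 for Selp_low over yHSCs, 0.54 without replicate 2).

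Dnajb9 (ERdj4), a BiP co-chaperone that holds IRE1 in check, showed another pattern. Its levels were 34.2, 90.4 and 94.1 CPM in yHSCs, 62.7, 125 and 66.9 CPM in Selp_low paHSCs and 50.6, 49.1 and 44.7 CPM in Selp_high paHSCs. Every Selp_high library lay below every Selp_low library, and yHSC replicate 1 was the lowest of the 9. The log2 fold change between the fractions was -0.83 (SE 0.32), the lowest adjusted p of a member in that comparison (0.378 by edgeR), and -0.40 without Selp_low replicate 2.

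The 2 remaining ER chaperones were Dnajb11 (ERdj3) and Hyou1 (GRP170). Dnajb11 ranged from 72.7 to 112 CPM in yHSCs, 116 to 262 CPM in Selp_low and 110 to 175 CPM in Selp_high paHSCs. The Selp_low libraries were therefore above the yHSC libraries, and Selp_high replicate 1 overlapped them. Hyou1, a nucleotide exchange factor of BiP, followed the replicate number instead of the group, with 5.33, 6.44 and 6.41 CPM in the libraries numbered 1 (yHSC, Selp_low, Selp_high) and 24.4 to 42.0 CPM in the other 6. Its groups overlapped in every comparison.

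**Figure D3:**
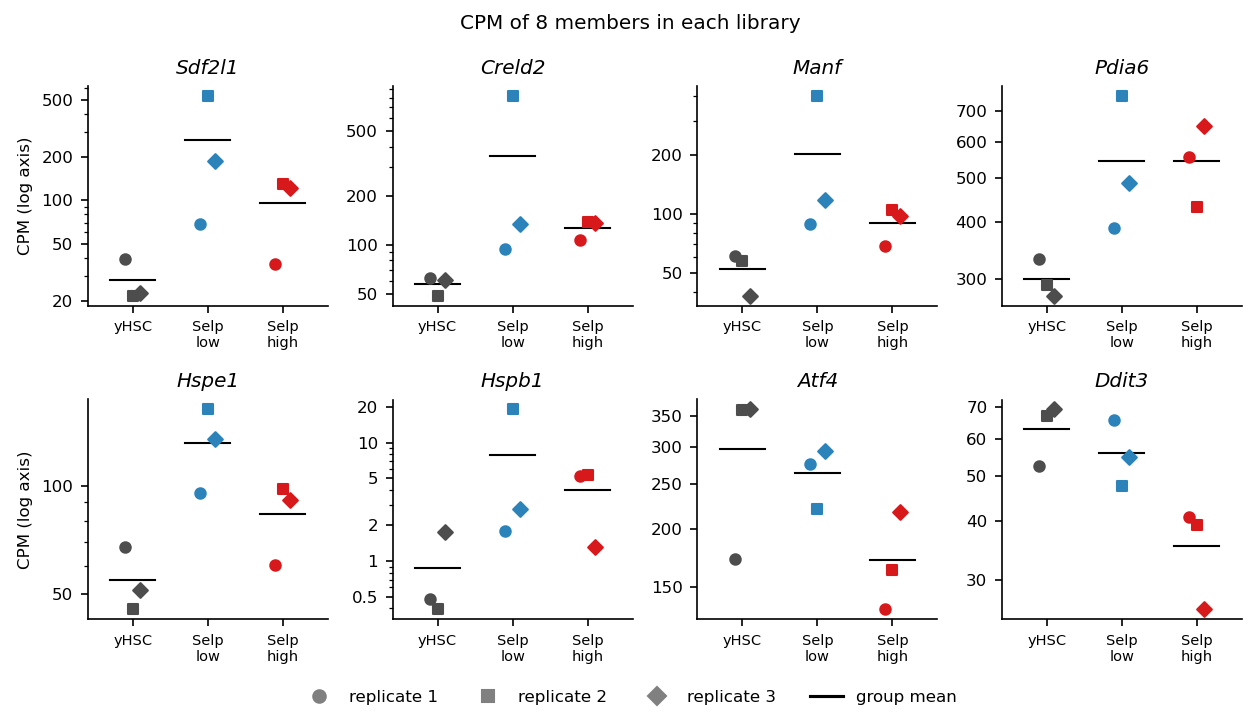
CPM (log axis) of 8 members in each library by group; marker shapes give the replicate number and horizontal lines the group mean. Sdf2l1, Creld2, Manf, Pdia6, Hspe1 and Hspb1 had all 3 Selp_low libraries above all yHSC libraries, and Ddit3 had all 3 Selp_high libraries below the other 6.

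The disulfide isomerases were higher in both fractions by their fitted values, 4 of 4 in each comparison with yHSCs. Pdia6, which also dampens IRE1 signaling, stood at 332, 291 and 276 CPM in yHSCs, 388, 756 and 486 CPM in Selp_low paHSCs and 556, 431 and 648 CPM in Selp_high paHSCs. Every paHSC library was above every yHSC library, with log2 fold changes over yHSCs of 0.82 (SE 0.25, adjusted p = 0.393 by edgeR) in Selp_high and 0.90 (SE 0.33, adjusted p = 0.378) in Selp_low paHSCs, the latter 0.55 without replicate 2.

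Pdia3 (ERp57), the partner of the ER lectins, ranged from 411 to 800 CPM in yHSCs, 840 to 1148 CPM in Selp_low and 666 to 851 CPM in Selp_high paHSCs. The Selp_low libraries did not overlap the yHSC libraries (log2 fold change 0.91, SE 0.37, adjusted p = 0.427 by edgeR, and 0.81 without replicate 2). P4hb, the classical disulfide isomerase PDI, had 258, 393 and 394 CPM in yHSCs and 475, 483 and 780 CPM in Selp_high paHSCs. These groups did not overlap (log2 fold change 0.70, SE 0.29, adjusted p = 0.639 by edgeR), while the Selp_low libraries, at 232 to 619 CPM, spanned the yHSC range. Pdia4 (ERp72) stood at 134 to 168 CPM in yHSCs, 166 to 259 CPM in Selp_high paHSCs and 231, 1157 and 167 CPM in Selp_low paHSCs. Its log2 fold change in Selp_low paHSCs over yHSCs was 1.88 (SE 0.75) with replicate 2 and 0.43 without it.

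The lectin chaperones calreticulin (Calr) and calnexin (Canx) overlapped in every comparison. Calr ranged from 235 to 687 CPM in yHSCs, 370 to 1088 CPM in Selp_low and 472 to 1063 CPM in Selp_high paHSCs, and replicate 1 was the lowest library of each group. Canx ranged from 219 to 348, 195 to 473 and 268 to 573 CPM, with replicate 1 again lowest in each group.

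Genes of ER-associated degradation, which retrotranslocates misfolded proteins to the proteasome, were high in 1 library. Herpud1, a scaffold of this machinery, stood at 212, 255 and 252 CPM in yHSCs, 212, 286 and 183 CPM in Selp_high paHSCs and 217, 1394 and 217 CPM in Selp_low paHSCs. All libraries but Selp_low replicate 2 lay between 183 and 286 CPM. The log2 fold change of Selp_low paHSCs over yHSCs was 1.42 (SE 0.77) with that library and -0.14 without it. Sel1l and Syvn1, adaptor and ubiquitin ligase of the HRD1 complex, reached 412 and 178 CPM in the same library and at most 125 and 85.2 CPM elsewhere. Syvn1 overlaps Mrpl49, whose mean CPM was 110% of its own.

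These peaks coincided with the plasma cell markers, which were also highest in Selp_low replicate 2. Of the 18 ER members, 18 of 18 had a higher fitted value in Selp_low paHSCs than in yHSCs (median log2 fold change 0.99), and 13 of 18 without that library (median 0.42). Of all genes tested, 55.1% were higher with that library and 54.2% without it. Without Selp_low replicates 2 and 3 together, a setting added after the data were seen and resting on 1 Selp_low library, 8 of 18 were higher (median -0.18). In Selp_high paHSCs over yHSCs 14 of 18 were higher (median 0.56), beside 47.8% of all genes tested. Between the fractions 3 of 18 were higher in Selp_high paHSCs (median -0.51), beside 44.8% of all genes. This became 13 of 18 (median 0.16) without Selp_low replicate 2, beside 45.5%. Selp_low replicate 3, with 188 CPM of Sdf2l1 and 134 CPM of Creld2, had a plasma cell marker sum of 893 CPM, within the yHSC range, and the highest neutrophil marker sum. The part of other cells in these levels was not tested.

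**Figure D4:**
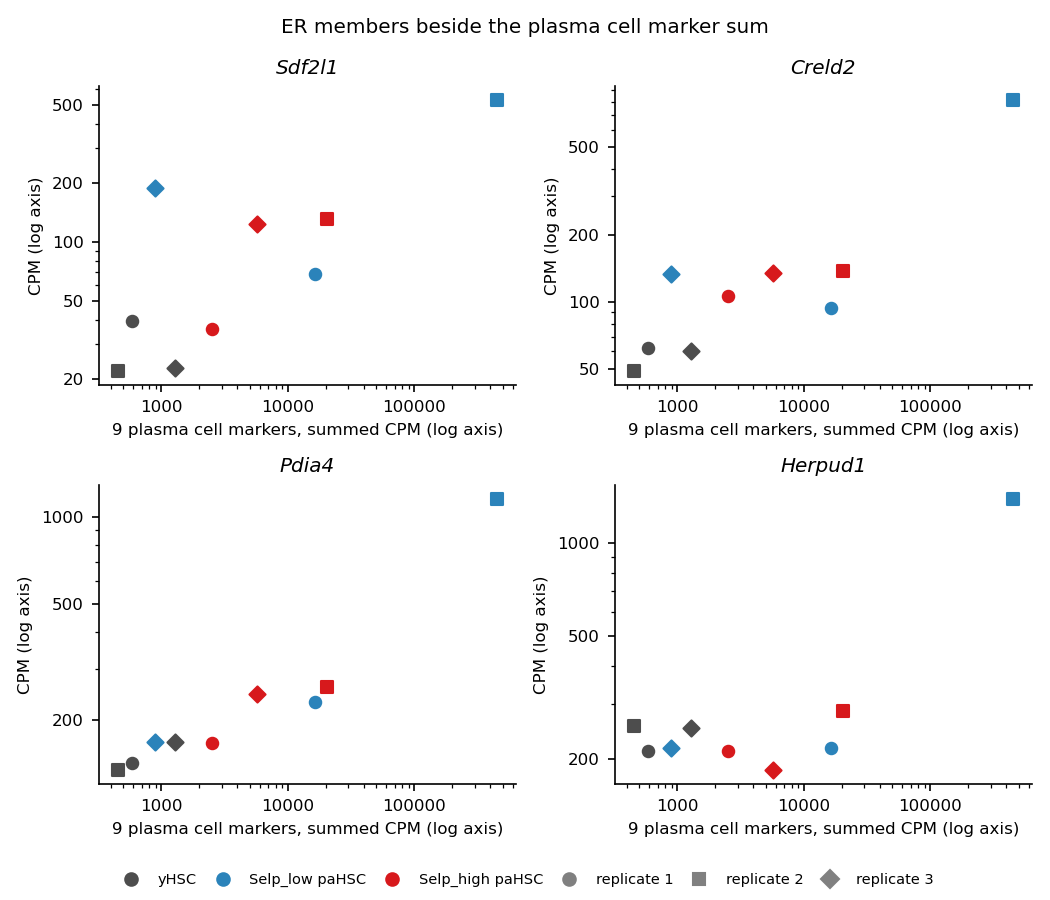
CPM of Sdf2l1, Creld2, Pdia4 and Herpud1 (y axes, log) against the summed CPM of 9 plasma cell markers (x axes, log) in the 9 libraries, colored by group. Igkc, Ighm and Jchain had the highest mean CPM of the 9 markers. Selp_low replicate 2 lies at the upper right of each panel (450740 CPM of markers), and Selp_low replicate 3, at 893 CPM of markers, was second highest for Sdf2l1 at 188 CPM.

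Of the 8 members with an ERSE match, the Selp_high libraries were all above the yHSC libraries for 4 (Hsp90b1, Dnajc3, Creld2 and Pdia6) and the Selp_low libraries for 3 (Dnajc3, Creld2 and Pdia6), beside 8.53% and 9.59% of all genes. The other 4 with a match, Hspa5, Calr, Canx and Syvn1, overlapped in every comparison. Over all 8 members with a match, log2 fold changes over yHSCs ranged from -0.30 to 1.12 in Selp_high and from 0.15 to 2.68 in Selp_low paHSCs. In Selp_high paHSCs Hspa5 and Creld2, with the same element in the windows printed above, stood at opposite ends of the range.

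The 3 sensors overlapped between groups in every comparison. Ern1, which encodes IRE1, stood at 9.64, 94.7 and 29.1 CPM in yHSCs, 12.5 to 17.2 CPM in Selp_low paHSCs and 11.5, 25.8 and 26.1 CPM in Selp_high paHSCs. As for Hyou1, replicate 1 was the lowest library of each group, and yHSC replicate 2 was far above the other 8. Atf6 ranged from 15.0 to 43.5 CPM and Eif2ak3, which encodes PERK, from 8.82 to 25.8 CPM over the 9 libraries, with Selp_low replicate 2 highest for both.

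Among the integrated stress response genes, Atf4 and Ddit3 had lower fitted values in Selp_high paHSCs than in both other groups. Atf4, its central transcription factor, which is regulated mainly in translation, stood at 173, 360 and 362 CPM in yHSCs, 277, 221 and 295 CPM in Selp_low paHSCs and 135, 164 and 217 CPM in Selp_high paHSCs. All Selp_high libraries lay below all Selp_low libraries, and yHSC replicate 1 fell among the Selp_high values. The log2 fold change was -0.63 (SE 0.28, adjusted p = 0.422 by edgeR) over Selp_low paHSCs and -0.82 (SE 0.34, adjusted p = 0.639) over yHSCs, and -0.71 over Selp_low paHSCs without Selp_low replicate 2.

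Ddit3 (mm39, chr10:127126643-127132157, +) encodes CHOP, a target of ATF4 that promotes apoptosis under lasting ER stress. Its levels were 52.4, 67.0 and 69.3 CPM in yHSCs (62.9 ± 9.16, SD, n = 3), 65.7, 47.6 and 54.8 CPM in Selp_low paHSCs (56.0 ± 9.14) and 40.8, 39.3 and 26.0 CPM in Selp_high paHSCs (35.4 ± 8.15). The 3 Selp_high libraries were the 3 lowest of the 9, and Ddit3 was the only member of the 38 for which Selp_high lay below both other groups without overlap. The log2 fold change was -0.85 (SE 0.28, adjusted p = 0.461 by edgeR) over yHSCs and -0.67 (SE 0.28, adjusted p = 0.392) over Selp_low paHSCs, and -0.75 over Selp_low paHSCs without Selp_low replicate 2. Ddit3 overlaps Mars1 on the other strand, whose mean CPM was 206% of its own, and the strand setting of the counting is not given, so its counts are uncertain.

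Ppp1r15a (GADD34), the phosphatase subunit that reverses eIF2 phosphorylation and also an early response gene, stood at 797, 906 and 1002 CPM in yHSCs, 1578, 610 and 392 CPM in Selp_low paHSCs and 1264, 208 and 452 CPM in Selp_high paHSCs. The paHSC fractions overlapped each other and spread on both sides of the yHSC libraries. The level moved with the sum of 10 early response genes (Fos, Jun, Egr1 and others), which was 10507, 14388 and 16981 CPM in yHSCs, 20982, 10292 and 6995 CPM in Selp_low paHSCs and 13820, 2431 and 5069 CPM in Selp_high paHSCs. The library highest in both measures was Selp_low replicate 1 and the library lowest in both was Selp_high replicate 2. How handling and sorting bear on these genes was not tested.

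Trib3, a pseudokinase induced by ATF4 and CHOP, reached 85.6 CPM in Selp_high replicate 1 and 5.74 to 28.0 CPM in the other 8 libraries. DESeq2 with a block for the replicate number called it higher in Selp_high than in Selp_low paHSCs (log2 fold change 1.55, adjusted p = 0.0103), with edgeR's adjusted p at 0.422 and a range of 0.0103 to 1.00 over the alternatives. In that comparison the same fit called 10.1% of all genes. It called 4.15% in Selp_high and 2.51% in Selp_low paHSCs over yHSCs. The edgeR log2 fold change of Trib3 between the fractions was 1.83 (SE 0.82), and it was 0.73 without Selp_high replicate 1 and 1.53 without Selp_low replicate 2. Asns, the asparagine synthetase gene with the CARE match printed above, ranged from 48.6 to 132 CPM in yHSCs, 72.3 to 247 CPM in Selp_low and 91.0 to 151 CPM in Selp_high paHSCs. These overlapped because of yHSC replicate 1, which stood at 132 CPM beside 48.7 and 48.6 CPM. Without that library DESeq2 called Asns in Selp_high (log2 fold change 1.28, adjusted p = 0.0112, with 4.71% of all genes called) and in Selp_low paHSCs over yHSCs (1.70, adjusted p = 0.0485, with 10.8%), a setting added after the data were seen, and without any other single library its adjusted p was 0.383 or higher.

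**Figure D5:**
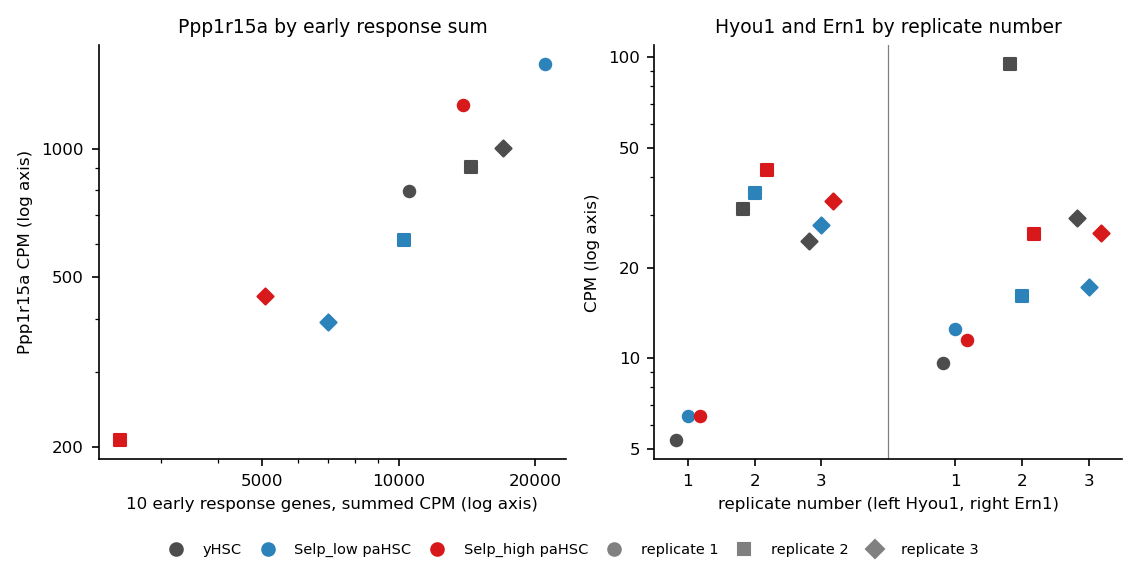
Left, Ppp1r15a CPM against the summed CPM of 10 early response genes (log axes) in the 9 libraries; right, CPM (log axis) of Hyou1 and Ern1 by replicate number. Ppp1r15a ran from 208 CPM at the lowest sum (2431 CPM) to 1578 CPM at the highest (20982 CPM), and the 3 libraries numbered 1 were lowest for Hyou1 at 5.33 to 6.44 CPM.

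Of the cytosolic chaperones and their regulator, 0 of 10 were called by edgeR, and DESeq2 called Hspb1. Hsf1 stood at 60.7, 181 and 144 CPM in yHSCs, 94.6, 102 and 84.2 CPM in Selp_low paHSCs and 173, 88.9 and 140 CPM in Selp_high paHSCs, and the groups overlapped in every comparison. Hspa8, the constitutive HSP70, had 1813, 1235 and 1797 CPM in yHSCs, 1462, 2987 and 1639 CPM in Selp_low paHSCs and 2359, 2483 and 2089 CPM in Selp_high paHSCs. The Selp_high libraries were above all yHSC libraries by 1.40-fold (log2 0.49, SE 0.24, adjusted p = 0.748 by edgeR).

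Hsp90ab1, the constitutive cytosolic HSP90, was the only member higher in Selp_high than in Selp_low paHSCs without overlap, at 1654, 1592 and 1946 CPM against 1158, 1538 and 1300 CPM. The gap between the nearest libraries was small, from 1538 to 1592 CPM, and the log2 fold change was 0.37 (SE 0.31, adjusted p = 0.661 by edgeR), and 0.52 without Selp_low replicate 2. The yHSC libraries, at 887 to 1873 CPM, overlapped both fractions. Hsp90aa1, Dnaja1, Dnajb1 and Hsph1 overlapped in every comparison, and the highest library of each was 1.76 to 2.82 times its lowest.

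The inducible HSP70 genes Hspa1a and Hspa1b, the classical targets of HSF1, stayed low in most libraries. Hspa1b stood at 5.43, 6.66 and 17.8 CPM in yHSCs, 13.8, 90.6 and 12.5 CPM in Selp_low paHSCs and 3.59, 39.2 and 3.61 CPM in Selp_high paHSCs. Hspa1a had 1.53, 2.48 and 8.38 CPM, 4.53, 19.7 and 3.11 CPM, and 2.02, 5.43 and 2.01 CPM in the same groups. Replicate 2 was the highest library in both paHSC fractions for both genes, and replicate 3 in yHSCs. The genes share 47.1% and 49.9% of their 100-base windows, so reads cannot always be told apart, and their summed level was 6.96, 9.14 and 26.2 CPM in yHSCs, 18.4, 110 and 15.6 CPM in Selp_low paHSCs and 5.61, 44.6 and 5.62 CPM in Selp_high paHSCs. DESeq2 with the replicate block called Hspa1b lower in Selp_high than in Selp_low paHSCs (log2 fold change -1.65, adjusted p = 1.98e-05, with 0.679 by edgeR and 1.98e-05 to 1.00 over the alternatives), but the edgeR value changed sign without Selp_low replicate 2, from -1.34 to 0.25.

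Hspb1 (mm39, chr5:135916773-135918417, +), the small heat shock protein HSP27, was measured at 14, 17 and 65 counts in yHSCs, 55, 289 and 73 counts in Selp_low paHSCs and 204, 216 and 46 counts in Selp_high paHSCs. In CPM this was 0.475, 0.394 and 1.78, then 1.81, 19.1 and 2.74, and then 5.27, 5.33 and 1.32. The Selp_low libraries were all above the yHSC libraries, but Selp_low replicate 1 exceeded yHSC replicate 3 by only 1.81 against 1.78 CPM. The log2 fold change of Selp_low paHSCs over yHSCs was 3.24 (SE 1.14), with an adjusted p of 0.367 by edgeR and 0.0452 by DESeq2 and a range of 0.0452 to 1.00 over the alternatives. It was 1.36 without Selp_low replicate 2, where DESeq2 gave 0.811. In Selp_high paHSCs over yHSCs the libraries overlapped, and the log2 fold change of Hspb1 was 2.19, the highest of the 38 members. DESeq2 called Hspb1 there only without yHSC replicate 3 (1.89% of all genes called) or without Selp_high replicate 3 (4.36%), settings added after the data were seen.

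The subunits of the mitochondrial chaperonin, which folds imported proteins, are encoded by Hspe1 (HSP10) and Hspd1 (HSP60). Hspe1 (mm39, chr1:55127291-55130466, +) stood at 67.5, 45.5 and 51.3 CPM in yHSCs (54.8 ± 11.4, SD, n = 3), 95.2, 162 and 135 CPM in Selp_low paHSCs (131 ± 33.8) and 60.5, 98.1 and 91.0 CPM in Selp_high paHSCs (83.2 ± 20.0). All Selp_low libraries were above all yHSC libraries, and Selp_high replicate 1 overlapped the yHSC libraries. With Sdf2l1 it had the lowest adjusted p of a member in Selp_low paHSCs over yHSCs (2.45-fold, log2 1.29, SE 0.30, adjusted p = 0.332 by edgeR), and the log2 fold change was 1.08 without Selp_low replicate 2. Hspe1 overlaps Hspd1 on the opposite strand, whose mean CPM was 396% of its own, so its counts are uncertain as well. Hspd1, its neighbor and partner, ranged from 291 to 379 CPM in yHSCs, 327 to 435 CPM in Selp_low and 276 to 431 CPM in Selp_high paHSCs. Its log2 fold changes were -0.02 to 0.13 in the 3 comparisons, with SE of 0.25 to 0.29, and -0.05 between the fractions and 0.17 over yHSCs for Selp_low without its replicate 2. Whether the subunits differ from each other in their change was not tested.

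Other genes of the same pathways, from lists of 30 ER folding and degradation genes, 26 integrated stress response genes, 34 cytosolic chaperones and co-chaperones and 7 mitochondrial chaperones and proteases, gave 0 calls by edgeR in each comparison. DESeq2 called Derl3, a retrotranslocation factor that is also among the plasma cell markers, and Nupr1, a stress-induced nuclear protein, higher in Selp_high paHSCs than in yHSCs, and Nupr1 and Sec61b, a subunit of the ER translocon, higher in Selp_low paHSCs than in yHSCs, where it called 2.05% and 1.79% of all genes higher. It called 0 genes of these lists between the fractions. Derl3 was low, at 0.271, 1.07 and 1.29 CPM in yHSCs and 1.24, 21.2 and 4.04 CPM in Selp_high paHSCs. Selp_high replicate 1 thus lay within the yHSC range. In Selp_low paHSCs Derl3 stood at 3.51, 342 and 1.76 CPM. Nupr1 stood at 23.8, 9.49 and 6.81 CPM in yHSCs, 186, 39.7 and 71.3 CPM in Selp_low paHSCs and 583, 132 and 144 CPM in Selp_high paHSCs, so that every paHSC library was above every yHSC library. Its log2 fold change over yHSCs was 4.37 (SE 0.82, adjusted p = 0.141 by edgeR) in Selp_high and 2.91 (SE 0.75, adjusted p = 0.332) in Selp_low paHSCs, the latter 3.28 without Selp_low replicate 2.

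The medians of these lists in Selp_high paHSCs over yHSCs were 0.14 for the ER genes, with 21 of 30 higher, 0.15 for the integrated stress response genes, with 16 of 26 higher, 0.27 for the cytosolic chaperones, with 28 of 34 higher, and 0.07 for the mitochondrial genes, with 4 of 7 higher. In Selp_low paHSCs over yHSCs they were 0.60 (25 of 30), 0.03 (14 of 26), 0.07 (21 of 34) and -0.29 (2 of 7), beside 0.08 for all genes. Without Selp_low replicate 2 they were 0.32 (19 of 30), -0.04 (13 of 26), 0.08 (24 of 34) and -0.29 (2 of 7), beside 0.07. Between the fractions 9 of 30 ER genes were higher in Selp_high paHSCs, which became 16 of 30 without Selp_low replicate 2. The cytosolic chaperones gave 27 of 34 with that library and 26 of 34 without it. In the same order the integrated stress response genes gave 14 and 18 of 26, and the mitochondrial genes 5 and 4 of 7. Of all genes tested, 44.8% were higher with that library and 45.5% without it. The 10 early response genes had a median of -1.17 in Selp_high paHSCs over yHSCs and -1.09 over Selp_low paHSCs, with 0 of 10 higher in both. DESeq2 called 3 of these 10, Jun, Nr4a1 and Btg2, lower in Selp_high paHSCs than in yHSCs, beside 1.20% of all genes.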

How the data were processed

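The 9 libraries were made from sorted HSCs with a low-input SMARTer kit. The authors trimmed reads with fastp, aligned them with HISAT2 (2.2.1) and counted them per gene with featureCounts (2.0.6). The deposited values are raw counts on mm39, not normalized, beside a gene length, and 0 sample columns went unused. The sources used here do not give the strand setting, the annotation release or the handling of multi-mapping reads. CASAVA (1.8) and DESeq2 (1.42.0) stand in the submitters' processing notes as well.

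Counts were analysed under R (4.3.3) with DESeq2 (1.42.0), limma (3.58.1) and edgeR (4.0.16), and plots were made with matplotlib (3.10.9, Python 3.11.15). For each pair of groups, all genes that passed filterByExpr were fitted with TMM factors and the quasi-likelihood test of edgeR, with Benjamini-Hochberg adjustment over them. Genes with an adjusted p up to 0.05 and at least a 2-fold change were called. CPM rested on TMM factors from all 9 libraries, and FPKM on the deposited gene length. Depth was 24866975 to 35375310 counts per library, and the 3 counts that a count of 0 allows equal 0.0696 to 0.198 CPM, for counting error only. An exact permutation test of 3 against 3 libraries cannot go below p = 0.1 and was not used. Promoter windows were taken from RefSeq on GRCm38.p6, and Hspa1a and Hspa1b were compared by their GENCODE transcripts. The code of the fits was checked on counts simulated with the same spread for all genes and libraries. That setting differs from these libraries, so it does not measure how well the fits do here.

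The members, the other gene lists and the markers were chosen with earlier results of these data known. Full values were given for members called by edgeR or DESeq2, members without overlap of libraries (at most 3 per class and comparison), the highest member of each class by FPKM, and Hspa5, Atf4, Ddit3, Hsf1, Hspa1a and Hspa1b, and at most 3 called genes of each other list were named. Values of Dnajb11, Hyou1, Pdia4, Sel1l, Syvn1, Ern1, Trib3 and Asns were added after they were seen. Replicate numbers were checked by correlating deviations from the group means. Between Selp_high and Selp_low paHSCs, libraries of the same number gave 0.178, 0.276 and 0.303, all above the 0.1 taken as pairing. Libraries of these fractions with different numbers gave -0.245 to 0.0252. With yHSCs, libraries of the same number gave -0.417 to 0.0917 and those of different numbers -0.0705 to 0.449. A value above 0.1 therefore does not by itself show pairing, and no label states a shared day or animal. Alternatives were other scaling factors, filters, tools and fits, a replicate block, and the omission of single libraries. DESeq2 without single libraries, and edgeR without Selp_low replicates 2 and 3 together, were added after the data were seen.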

Additional observations from a re-analysis of the deposited data

How the results depend on the processing

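The count of members called by edgeR was 0 in each comparison under every alternative except the omission of the filter on low counts. That gave 1 for Selp_high paHSCs over yHSCs (Sdf2l1, against 1.14% of all genes) and 2 for Selp_low paHSCs over yHSCs (Sdf2l1 and Creld2, against 0.836%). Voom quality weights gave 2 for Selp_high paHSCs over yHSCs (Sdf2l1 and Creld2, against 1.37% of all genes) and 0 elsewhere, and DESeq2 gave 1, 2 and 0 as described. Leaving out each library in turn, DESeq2 called 0 to 4 members in Selp_high paHSCs over yHSCs, 0 to 7 in Selp_low paHSCs over yHSCs and 0 to 1 between the fractions, and edgeR 0 throughout. In Selp_high paHSCs over yHSCs the count was 3 without yHSC replicate 1 (4.71% of all genes called), 4 without Selp_high replicate 1 (3.44%) and 0 without yHSC or Selp_high replicate 2. In Selp_low paHSCs over yHSCs it was 7 without yHSC replicate 1, when 10.8% of all genes were called, and 6 without Selp_low replicate 1 (4.68%) or 3 (7.40%). It was 1 without yHSC replicate 2 (1.12%) or 3 (0.841%) and 0 without Selp_low replicate 2, when 0.779% were called. Between the fractions it was 1 without Selp_high replicate 2 (9.41%). The cause was not tested.

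With the replicate block edgeR called 0 members in every comparison. DESeq2 with the replicate block called 3 between the fractions (Sdf2l1, at a log2 fold change of -1.20, Trib3 and Hspa1b, against 10.1% of all genes). It called 1 in Selp_high paHSCs over yHSCs (Creld2, against 4.15%) and 1 in Selp_low paHSCs over yHSCs (Sdf2l1, against 2.51%).

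Among the members with full values and the others whose fold changes are given, 48 values under the alternatives reversed direction. As no member passed by edgeR in any comparison, these reversals could only be of fold changes that did not pass. Between the fractions, with libraries left out in turn, Hspa1b ran from -3.44 to 0.25, Calr from -0.46 to 0.18, Herpud1 from -1.85 to 0.090, Ppp1r15a from -1.39 to 0.39 and Hspd1 from -0.16 to 0.15. Calr was 0.49 and Hspd1 0.16 with voom, and Hspd1 0.047 without a filter. Without Selp_low replicates 2 and 3, Hspa1b was 0.18, Hspa5 0.067, Calr 1.08, Herpud1 0.075, Hspd1 0.15 and Sdf2l1 0.50.

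In Selp_high paHSCs over yHSCs, leaving out libraries gave -1.47 to 1.29 for Hspa1b, -1.03 to 0.58 for Hspa1a, -0.29 to 0.41 for Hsf1, -0.31 to 0.055 for Herpud1, -1.58 to 0.14 for Ern1 (the highest without yHSC replicate 2), -0.041 to 0.36 for Hsp90ab1 and -0.056 to 0.21 for Hspd1. Hsf1 was -0.21 and Hspa1b -0.73 with voom, and Hspa1b -0.25 with the replicate block and -0.28 with that block in DESeq2.

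In Selp_low paHSCs over yHSCs, leaving out libraries gave -0.085 to 0.51 for Hspa5, -0.44 to 0.041 for Atf4, -0.11 to 2.25 for Hspa1a, -0.14 to 1.82 for Herpud1, -0.80 to 0.27 for Ppp1r15a, -0.41 to 0.11 for Hsp90ab1 and -0.053 to 0.20 for Hspd1. Ppp1r15a was 0.0070 with upper-quartile factors and 0.085 with voom. Without Selp_low replicates 2 and 3, Hspa5 was -0.45, Calr -0.65, Herpud1 -0.25, Ppp1r15a 0.70, Hspd1 -0.16 and Hsp90b1 -0.24.

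Of the other values for these members, 920 kept their direction and their side of the threshold, and 14 kept their direction and passed it. At 14 and 17 counts in yHSC replicates 1 and 2, Hspb1 had the lowest counts of any member.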
